A study of Mus musculus with 6 samples.

Results

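Mitochondrial protein import and the chaperones that receive imported proteins were examined in double negative thymocytes, early T cell precursors without surface CD4 or CD8. Members were all genes whose symbol in the array's annotation starts with Timm or Tomm, together with the named genes Hspa9, Hspd1, Hspe1, Grpel1, Grpel2, Pam16, Trap1, Phb, Phb2, Lonp1, Clpp, Clpx, Chchd4, Gfer and Rbfa. On the array this gave 77 probe sets for 38 genes, out of 45037 probe sets that are not controls. Another 5 probe sets carry a second gene's symbol and were not assigned, which leaves Phb, Tomm5 and Tomm6 without a value. Of the 38 genes, 17 were read by 1 probe set and 21 by several, up to 6. The expression level of each probe set is a single-colour array intensity.

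Of the 6 arrays, 3 are labelled wild type and the other 3 carry the label Egr1/Egr3 double knockout (DKO below). That label names a loss of a pair of related zinc finger transcription factors. The sample descriptions number the animals within each group. The sources used here do not give strain, age, sex or the design of the knockout alleles. The sample descriptions speak of cells sorted by flow cytometry and the titles of whole thymus. Cd4 read 6.08 or less on the 6 arrays, below the brightest bacterial control of each array, whereas Cd8a read between 68.5 and 197 and was above that control on all of them. Of 12 double negative thymocyte markers on the array, all were above the bacterial controls on some array.

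Facts of the whole series bear on every value below. Egr1 was higher in DKO-labelled mice (between 1221 and 1757) than on those labelled wild type (between 455 and 509), by 1.60 on the log2 scale (SE 0.22, limma adjusted p = 0.00312), so the groups are called by their labels throughout and directions hold for those labels. Egr3 read 92.2, 83.1 and 30.8 in wild type mice and 34.4, 45.8 and 32.9 in DKO-labelled mice, with overlap, a change of -0.59 (SE 0.35, adjusted p = 0.368). Whether the probe sets lie in the deleted parts is not known here. Wild type replicate 3 stood apart in the summed intensity of 12 granulocyte marker genes. The sum was 358 there, 11628 and 25272 on the other wild type arrays and between 18665 and 28069 in DKO-labelled mice. Bright genes such as S100a8 (20.4 there, against 5282 to 12016 elsewhere) carried it. Elane (37.9, against 28.2 to 45.3) and Prtn3 (16.5, against 5.67 to 54.0) did not set that array apart. Wild type replicate 3 also held the highest sum of 6 erythroid genes (3942, against 85.7 to 500.4 elsewhere). Alas2 (3142 there, against 13.1 to 332 elsewhere) and Slc4a1 (636, against 13.2 to 163) carried it. Hba-a1 (39.0) and Epor (50.6) were highest there too, at low levels. Klf1 (46.3, against 21.7 to 56.9) and Ermap (27.4, against 11.8 to 42.1) did not set that array apart. The Y-linked gene Eif2s3y read 476 on wild type replicate 1, but 13.2 and 0.625 on wild type replicates 2 and 3. In DKO-labelled mice it read between 186 and 265. The Y-linked genes Kdm5d and Uty read 144 and 63.7 on wild type replicate 1 and 12.4 or less on replicates 2 and 3. In DKO-labelled mice they read 10.3 to 29.5 and 11.4 to 23.4, near or below the brightest bacterial control. The female-expressed RNA Xist read 1439 or more on all 6, so wild type replicate 1 held both kinds of signal. All 3 DKO-labelled arrays also held both, Xist (between 3910 and 6015) and, of the Y-linked genes, mainly Eif2s3y. Whether an array holds more than 1 animal was not tested. The summed intensity of the 12 double negative thymocyte markers lay between 19884 and 22292 in wild type mice and between 10799 and 11991 in the other group, and of these markers Ptcra and Il2ra fell and none rose. Cd7 (1.96, SE 0.55, limma adjusted p = 0.0636) and Kit (0.89, SE 0.30, adjusted p = 0.0816) had positive changes without overlap between the groups and did not pass.

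Nearly all mitochondrial proteins are made in the cytosol and cross the outer membrane through the TOM pore. Hydrophobic carrier proteins are then escorted across the intermembrane space by hexamers of small TIM proteins to the TIM22 insertase, small cysteine-rich proteins are trapped there by the Chchd4 and Gfer disulfide relay, and proteins with a presequence pass through TIM23 and are pulled inside by a motor built around the mitochondrial HSP70, Hspa9. In the matrix the Hspd1 and Hspe1 chaperonin folds them, and the proteases Lonp1 and the Clpp and Clpx complex remove what fails to fold. Early thymocytes divide rapidly and need this machinery to build new mitochondria.

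Most of these genes were lower on DKO-labelled arrays, and 6 passed the test. Rbfa, a factor that helps assemble the mitochondrial ribosome, fell most, then the small TIM genes Timm8a1, Timm10 and Timm9, the relay oxidoreductase Chchd4 and the motor chaperone Hspa9, with log2 changes between -3.12 and -1.14. A change here is the mean of DKO-labelled minus wild type arrays in log2 of intensity plus an offset of 16, SE is its moderated standard error, and limma p-values are adjusted by the Benjamini-Hochberg method over all 27022 probe sets tested. P-values set each change against the spread between these arrays, moderated over all probe sets tested. Of the 36 genes bright enough to test, with the brightest probe set standing for each gene, 6 were lower and 0 higher at a limma adjusted p of 0.05, which is 16.7% lower, where among all 13187 genes tested 2.54% were lower and 3.72% higher. Limma gave an unadjusted p under 0.05 for 14 of the 36 genes (38.9%), against 20.9% of all genes tested. Counted over probe sets, 9 of 71 were lower and 0 higher, against 2.11% lower and 2.91% higher of all 27022 tested. Array weights, a fit that counts noisier arrays less, called 1 probe set higher, as did some of the other alternatives, all for Gfer. Without Rbfa, 5 of 35 genes were lower. Since the members were picked with earlier results of these data known, Rbfa's fall among them, these counts describe the genes and are set beside the background only.

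The median log2 change of the 36 genes was -0.46, where the median of all genes tested was -0.01. A negative change was found for 31 of the 36, against 51.0% of all genes. In 14 genes all 3 DKO-labelled arrays read below all 3 labelled wild type, and in 1 gene above them; among all genes these shares were 12.8% below and 13.4% above. Left out of the test were Tomm20l and Timm8a2, which lay at or below the brightest bacterial control on all 6 arrays. In a bulk sample, fewer cells with a high level and less RNA in each cell cannot be told apart.

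**Figure D1:**
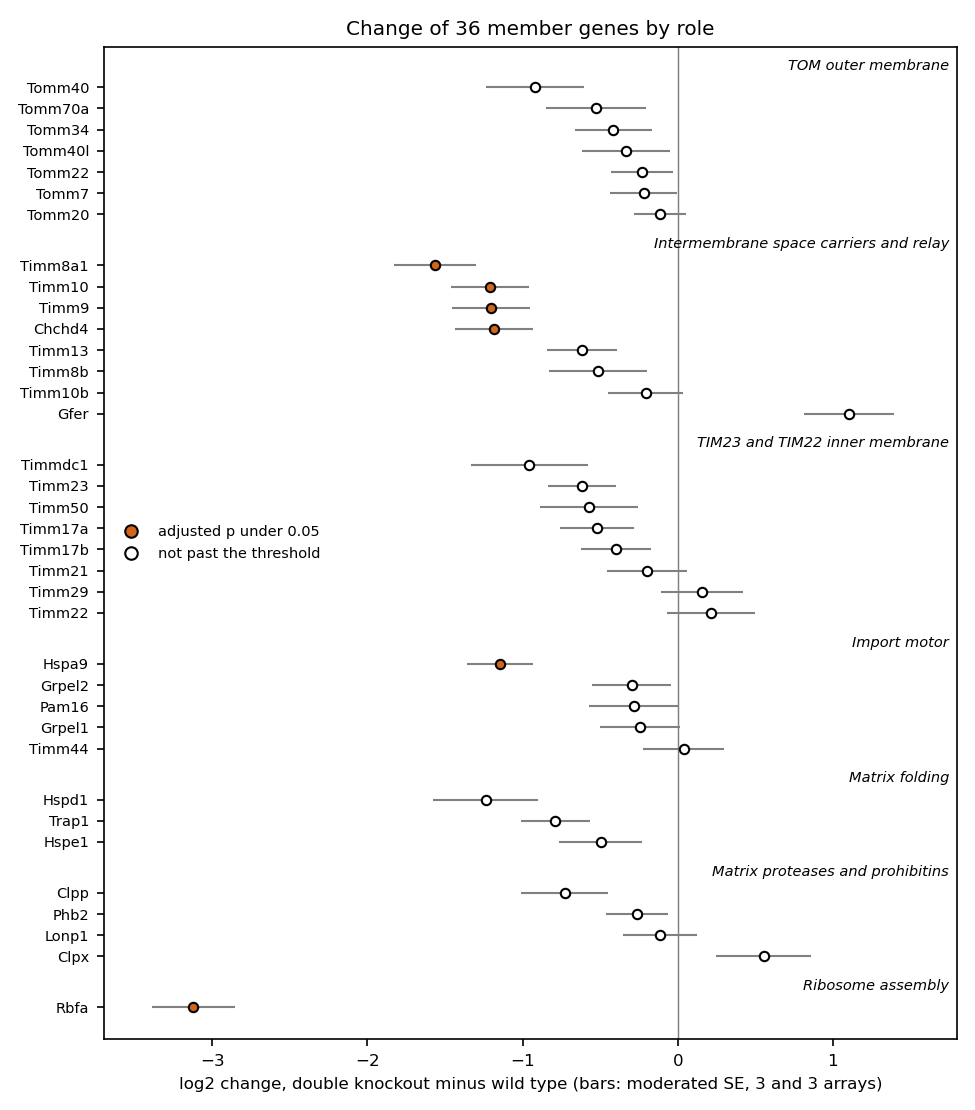
Log2 change of the 36 tested genes (horizontal axis, DKO-labelled arrays minus arrays labelled wild type), with bars for the moderated standard error and filled points for an adjusted p under 0.05. Of the 6 filled points, 4 lie in the intermembrane space group, and Rbfa lies far to the left of the others at -3.12.

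Sequence is shown first for 3 of the genes that fell and for the chaperonin gene Hspd1, which did not pass the test, because the letters CACGTG, the E-box that MYC and related factors can bind, occur near the start of each. RefSeq promoter windows of assembly GRCm38.p6 (250 bases before to 50 after a start) were found for 32 of the 38 members. CACGTG, which reads the same on both strands, was in a window of 7 of the 32 (21.9%), namely Hspd1, Lonp1, Timm10, Timm8a1, Timm9, Tomm20 and Tomm20l, and in a window of 8.09% of all 27025 genes in the table. Of the 6 genes that fell, 4 have a window there and 3 of these hold the motif. The exception, Chchd4, holds neither motif searched. The letters GCGNGGGCG, the site of EGR factors, searched on both strands, were in windows of Timm8a1, Tomm34 and Trap1, 3 of 32 (9.38%) against 6.27% of all genes. A match is a match of letters and no evidence of binding in these cells. Lonp1 and Tomm20 also hold an E-box, and their brightest probe sets gave -0.12 (SE 0.24) and -0.11 (SE 0.17), which did not pass. Whether motif and change go together was not tested.

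The stretches below run 5′ to 3′ on the gene's own strand, with E-boxes and the EGR site in capitals. Those of Timm8a1 (chrX:134541641-134541920, minus strand), Timm9 (chr12:71136646-71136925, minus strand) and Hspd1 (chr1:55088214-55088493, minus strand) span bases -250 to 30 around the start, and that of Timm10 (chr2:84827037-84827066, plus strand) is limited to bases 17 to 46 after the start, around its E-box.
Timm8a1: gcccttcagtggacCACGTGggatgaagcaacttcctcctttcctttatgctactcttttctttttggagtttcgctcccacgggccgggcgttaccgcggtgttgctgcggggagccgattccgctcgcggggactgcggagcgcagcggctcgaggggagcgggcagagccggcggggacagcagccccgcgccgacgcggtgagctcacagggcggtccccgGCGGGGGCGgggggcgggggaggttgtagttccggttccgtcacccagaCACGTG
Timm9: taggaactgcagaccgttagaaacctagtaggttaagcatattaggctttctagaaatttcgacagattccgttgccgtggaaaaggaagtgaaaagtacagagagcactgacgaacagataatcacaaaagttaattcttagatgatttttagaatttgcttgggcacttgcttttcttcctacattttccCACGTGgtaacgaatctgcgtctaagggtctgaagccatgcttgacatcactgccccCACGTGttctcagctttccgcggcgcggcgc
Hspd1: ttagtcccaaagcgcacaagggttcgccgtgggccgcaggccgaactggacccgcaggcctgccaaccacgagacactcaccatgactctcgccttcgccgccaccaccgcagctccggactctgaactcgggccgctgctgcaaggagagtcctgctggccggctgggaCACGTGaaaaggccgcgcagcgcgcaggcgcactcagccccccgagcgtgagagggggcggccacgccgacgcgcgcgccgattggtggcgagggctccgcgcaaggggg
Timm10: ccggaagtgaccCACGTGcttcttatttcg

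Timm8a1 and Timm9 each hold 2 E-boxes, Hspd1 and Timm10 hold 1, and Timm8a1 alone of the 4 also holds the EGR letters, 25 bases before its start. Hspd1 has a second annotated start whose window holds neither motif, and that window shares 285 bases with the window of Hspe1 on the opposite strand, since the gene pair lies head to head on chromosome 1 and the gene bodies overlap by 96 bases.

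At the outer membrane no gene passed the test. All 7 tested genes of the TOM complex and its cytosolic helper Tomm34 had negative changes, from -0.92 to -0.11, with a median of -0.33. Tomm40, the pore itself, read 128, 269 and 231 in wild type mice and 111, 74.8 and 118 in DKO-labelled mice. The groups did not overlap, but the change of -0.92 (SE 0.32, 95% interval -1.61 to -0.23) had a limma adjusted p of 0.128. Its paralog Tomm40l gave -0.33 (SE 0.28). Tomm20, the receptor for presequences, read between 9522 and 11444 in wild type mice, against 9232 to 10732 in the other group. Its change of -0.11 had an interval from -0.48 to 0.25. Its 5 other probe sets gave between -0.59 (SE 0.24, limma adjusted p = 0.197) and 0.16, of which that one and another at -0.46 (SE 0.21) did not overlap between the groups, and none passed. For Tomm70a, the receptor for carrier proteins, 4 tested probe sets gave between -0.90 (SE 0.24, limma adjusted p = 0.0516) and -0.37, and none passed. Tomm22 (-0.23, SE 0.20), Tomm7 (-0.22, SE 0.22) and Tomm34 (-0.41, SE 0.25) overlapped between the groups.

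The intermembrane space held 4 of the 6 genes that fell, out of 8 tested. Timm8a1, which partners Timm13 in a hexamer for carrier import and is the counterpart of the human deafness-dystonia gene, read 1461, 1289 and 1880 in wild type mice and 528, 668 and 378 in DKO-labelled mice. The lowest wild type array was thus above the highest of the other group, and the change was -1.56 (SE 0.26, limma adjusted p = 0.00593). Its dimmer probe set did not overlap between the groups either, with a change of -0.84 (SE 0.25, adjusted p = 0.0813). Timm8a1 and Timm17b lie on the X chromosome, and the sex-linked signals given above differ between arrays. Their part in these values was not tested.

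Timm9 and Timm10 together form the hexamer that escorts carrier proteins to TIM22, and they fell by like amounts. Timm10 read 987, 1252 and 1492 in wild type mice and 593, 461 and 534 in the other group, a change of -1.21 (SE 0.25, limma adjusted p = 0.0181). Timm9 read 227, 223 and 179 against 84.7, 66.4 and 100.2, a change of -1.20 (SE 0.25, adjusted p = 0.0185). In both genes the groups were apart on all arrays. The second Timm9 probe set was below the bacterial controls and was not tested. Timm10b, which joins the same hexamer at TIM22, gave -0.21 (SE 0.24) with overlapping groups, and its 3 other probe sets gave between -0.58 and -0.13.

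Neither the partner nor the paralog of Timm8a1 passed. Timm13 read 3589, 3394 and 4078 against 2564, 1895 and 2932, without overlap, and its change of -0.61 (SE 0.23) had a limma adjusted p of 0.158. Timm8b, the paralog of Timm8a1, read 820, 506 and 597 against 546, 276 and 569, which overlap, with a change of -0.51 (SE 0.32, 95% interval -1.20 to 0.18). The difference between the paralogs was not tested.

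The 2 enzymes of the disulfide relay gave different pictures. Chchd4, the oxidoreductase that traps small TIM proteins after they cross the outer membrane, read 892, 800 and 632 in wild type mice and 315, 294 and 397 in DKO-labelled mice, a change of -1.19 (SE 0.25, limma adjusted p = 0.0197). Gfer, the sulfhydryl oxidase that recharges Chchd4, was read by a pair of probe sets that went opposite ways. The first, which stood for the gene as the brighter over all arrays, read 172, 257 and 298 against 567, 410 and 649, a change of 1.10 (SE 0.29, limma adjusted p = 0.0521). The second read 522, 536 and 712 against 143, 164 and 149.9, a change of -1.85 (SE 0.24, adjusted p = 0.00133). Neither overlapped between the groups. No single direction can therefore be given for Gfer: the first passed as higher under 7 of the alternatives, among them leaving out wild type replicate 3 (1.25, adjusted p = 0.0174), and the second stood for the gene when double knockout replicate 1 or 3 was left out (-1.83 and -1.85, adjusted p = 0.0179 and 0.00939). The sources used here do not say which part of the transcript each probe set reads.

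**Figure D2:**
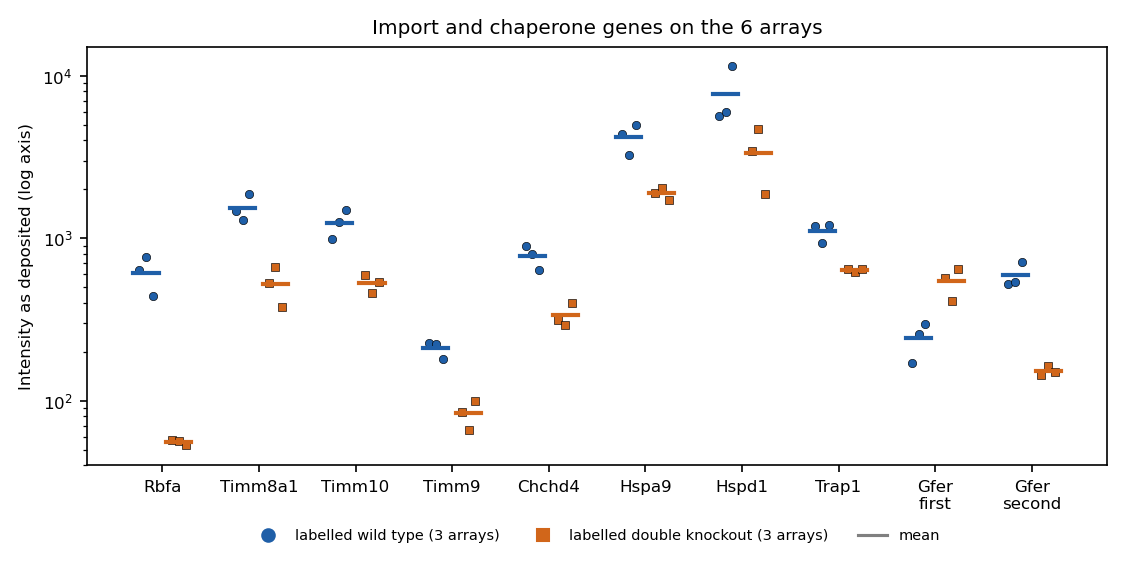
Deposited intensity (vertical log axis) on each array for the 6 genes that fell, the chaperones Hspd1 and Trap1 and both Gfer probe sets, with points for single arrays and lines for group means. Each item separates the groups; the first Gfer probe set runs up and the second down.

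None of 8 tested genes of the inner membrane translocases passed. Timm23, the channel for presequence proteins, read 8055, 6063 and 5771 in wild type mice and 4685, 3445 and 4986 in the other group, without overlap, a change of -0.62 (SE 0.22, limma adjusted p = 0.141). The related Timm17a and Timm17b, alternative subunits of that channel, gave -0.52 (SE 0.24) and -0.40 (SE 0.23), again without overlap on their brightest probe sets. Timm50, the receptor of the channel, gave -0.57 (SE 0.32), and Timmdc1, which carries the family's name but works in assembly of respiratory complex I, -0.96 (SE 0.38, adjusted p = 0.188), both with overlap. The TIM22 insertase itself did not share the sign: Timm22 gave 0.21 (SE 0.28, 95% interval -0.40 to 0.83) and its subunit Timm29 0.16 (SE 0.26, interval -0.42 to 0.73). Timm21, a regulatory subunit of TIM23, gave -0.20 (SE 0.26).

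In the import motor Hspa9 fell and its cofactors did not pass. Hspa9, the HSP70 that pulls proteins into the matrix, read 4404, 3233 and 4939 in wild type mice and 1896, 2036 and 1728 in DKO-labelled mice, a change of -1.14 (SE 0.21, limma adjusted p = 0.0103). A second probe set fell by a like amount (-1.11, SE 0.27, adjusted p = 0.0384), another gave -0.84 (SE 0.25, adjusted p = 0.0821), and the 2 others were near the bacterial controls. The nucleotide exchange factors Grpel1 and Grpel2 gave -0.24 (SE 0.26) and -0.30 (SE 0.25), the J-like regulator Pam16 -0.28 (SE 0.29) and the tether Timm44 0.04 (SE 0.26). All 4 overlapped between the groups. For Timm44 the 95% interval, -0.54 to 0.61, does not hold the size of the Hspa9 change, and its other 2 probe sets gave 0.11 and 0.17.

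The 3 folding chaperones of the matrix had negative changes and none passed on its brightest probe set. Hspd1, the large chaperonin subunit, read 5615, 5999 and 11465 in wild type mice and 3448, 4703 and 1863 in the other group. The groups were apart, yet arrays within each group differed widely, and the change of -1.24 (SE 0.34, 95% interval -1.98 to -0.50) had a limma adjusted p of 0.06. Under the 16 alternatives the change lay between -1.51 and -0.87 and the adjusted p between 0.0223 and 0.184. It passed under 2 of them, array weights (0.0223) and adjustment over genes (0.0486). Hspe1, its small partner on the shared locus, read 4149, 3974 and 8068 against 4069, 3802 and 3160, with overlap, a change of -0.50 (SE 0.27, adjusted p = 0.354). The dimmer Hspe1 probe set read 439, 408 and 480 against 337, 268 and 388, without overlap, a change of -0.43 (SE 0.25, limma adjusted p = 0.387). On the brightest probe set of both genes wild type replicate 3 was the highest array and double knockout replicate 3 the lowest. RefSeq names 5 further loci after Hspd1 and 7 after Hspe1, and the brighter Hspe1 probe set has the suffix given to probes shared by several transcripts, so signal from copies may be included. Trap1, the mitochondrial HSP90, read 1182, 937 and 1205 against 650.4, 616 and 649, a change of -0.79 (SE 0.22, adjusted p = 0.0649), and its dimmer probe set fell by 1.10 (SE 0.29, adjusted p = 0.0491).

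Proteases and prohibitins did not pass and differed in sign. Clpp, the peptidase, read 966, 1045 and 1799 in wild type mice and 851, 634 and 748 in the other group, without overlap, a change of -0.73 (SE 0.28, limma adjusted p = 0.177). The other Clpp probe set read 704, 850 and 1527 against 731, 579 and 547, with overlap, a change of -0.67 (SE 0.30, limma adjusted p = 0.26). Clpx, the unfoldase that feeds Clpp, read 74.8, 115 and 157 against 135, 250.1 and 152, a change of 0.55 (SE 0.31, adjusted p = 0.371). Lonp1, the main matrix protease, gave -0.12 (SE 0.24) and Phb2, a scaffold of the inner membrane, -0.26 (SE 0.20).

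Rbfa read 638, 767 and 438 in wild type mice and 57.1, 56.4 and 53.1 in DKO-labelled mice, which remained above the brightest bacterial control (between 19.0 and 25.6 on these arrays). The change was -3.12 (SE 0.27, limma adjusted p = 8.69e-05), from 614 ± 166 to 55.6 ± 2.14 (mean and SD, n = 3 each). It is the only member of its role group and was read by 1 probe set.

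Probe sets of a gene mostly shared a sign. Of 20 genes with several tested probe sets, 15 had 1 sign on all of them. The exceptions were Gfer, whose opposed probe sets are given above, and Tomm20, Tomm22, Timm29 and Hspa9, in which a probe set within 0.16 of 0 had the opposite sign and none of those passed.

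**Figure D3:**
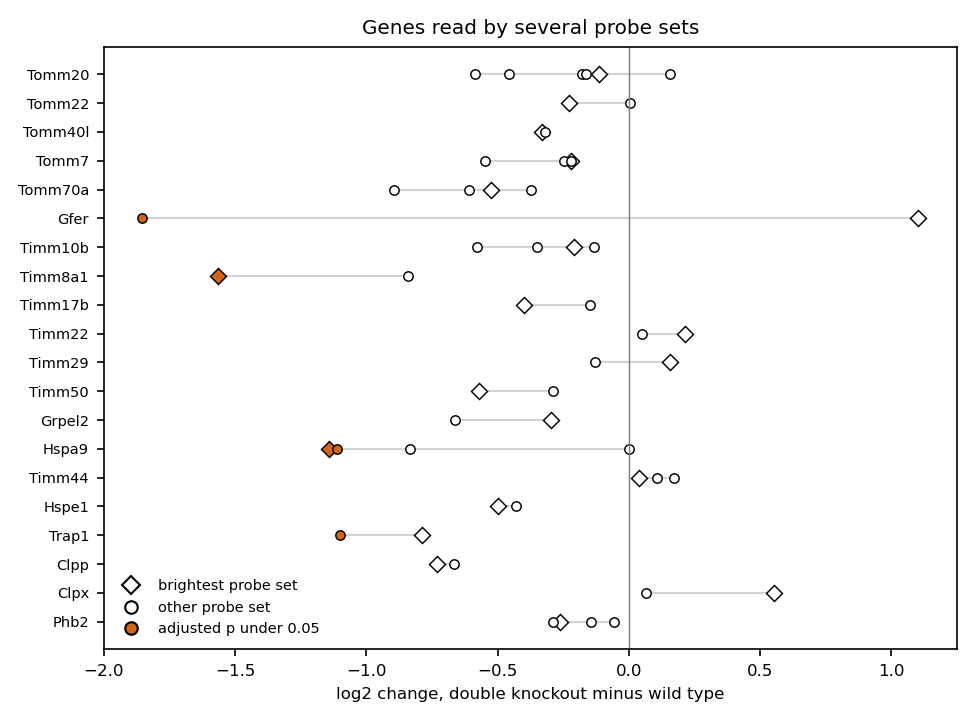
Log2 change of every tested probe set for the 20 genes that have several (horizontal axis), with diamonds for the brightest probe set and filled symbols for an adjusted p under 0.05. Gfer spans from -1.85 to 1.10, far more than the other genes.

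The member genes were not equally high on the arrays of a group. Wild type replicate 3 was the highest of the wild type arrays in 22 of 36 genes, and double knockout replicate 2 the lowest of its group in 22 of 36. The median deviation of the 36 genes from each gene's own mean was 0.21, 0.18 and 0.33 on wild type replicates 1, 2 and 3 and -0.08, -0.42 and -0.20 on double knockout replicates 1, 2 and 3, so the groups did not overlap in this summary. Without wild type replicate 3 the median change was -0.37, and without double knockout replicate 2 it was -0.31. With array weights it was -0.27. The summed intensity of 17 mitosis genes was 12976 on wild type replicate 3, 22215 and 19639 on wild type replicates 1 and 2 and between 15707 and 16067 in DKO-labelled mice. The sum of 8 B cell genes lay between 1077 and 2035 in wild type mice and between 2410 and 2896 in the other group, mainly through Cd79b, the 1 of 7 tested that rose; Cd79a read 72.4 or less on the 6 arrays. The sums of 8 macrophage and dendritic cell genes (239 to 549 and 327 to 458) and of 8 epithelial and stromal genes (394 to 1973 and 1081 to 3081) overlapped between the groups. Epcam alone (271 to 2890 over the 6 arrays) carried most of the epithelial and stromal sum, and 2 of those 8 genes stayed below the bacterial controls on all arrays. The part of these lists, and of the thymocyte markers that differ between the groups, in the changes of the members was not tested.

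**Figure D4:**
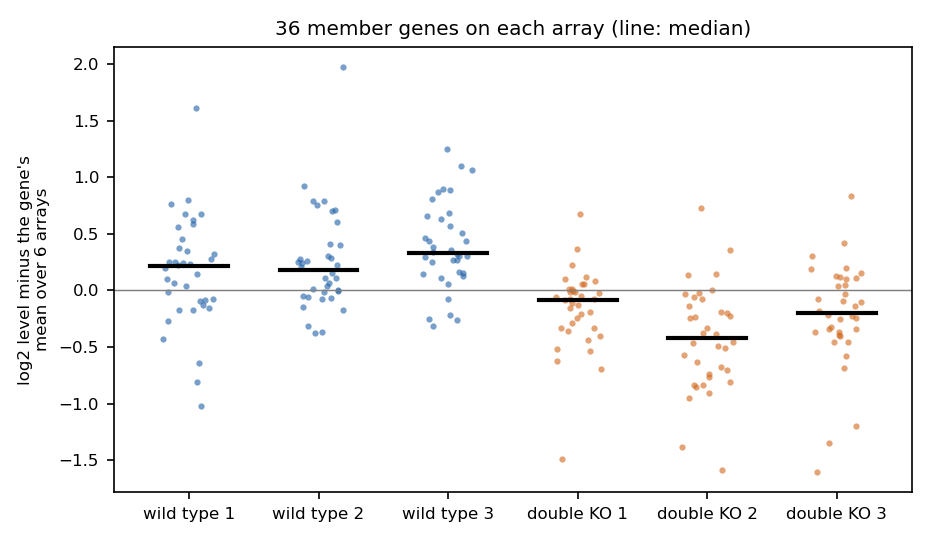
Each point is 1 of the 36 genes on 1 array, as its centred log2 level minus its mean over the 6 arrays, and black lines are medians. The medians are 0.33 on wild type replicate 3 and -0.42 on double knockout replicate 2, the furthest from 0 in each group.

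How firmly the 6 calls stood differed by gene. All 6 passed without wild type replicate 3. Rbfa and Timm8a1 passed in all 6 fits that left out 1 array, with adjusted p up to 0.00152 and 0.0441. Hspa9 missed without double knockout replicate 1 (adjusted p = 0.0735) or 3 (0.0505). Timm10 missed without wild type replicate 2 (0.0764) or with any 1 DKO-labelled array left out (0.0793, 0.0811 and 0.0633 for replicates 1, 2 and 3). Timm9 missed without wild type replicate 1 (0.0594) or 2 (0.0739) or double knockout replicate 1 (0.0969) or 2 (0.0864), and Chchd4 without the same arrays (0.0637, 0.0809, 0.126 and 0.0864). The sizes of these changes stayed between -1.39 and -1.02 for Hspa9, Timm10, Timm9 and Chchd4 in the fits with 1 array left out.

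**Figure D5:**
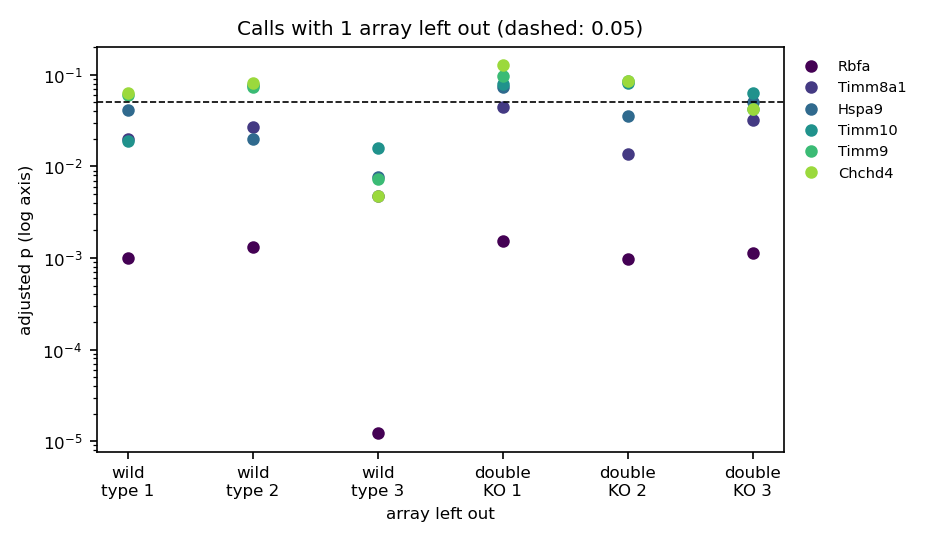
Limma adjusted p (vertical log axis) of the 6 genes that fell when each array in turn is left out (horizontal axis), with the threshold of 0.05 as a dashed line. Rbfa and Timm8a1 stay below the line throughout, and all 6 genes lie below it without wild type replicate 3.

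Other genes of import and quality control, listed for their textbook roles, were mostly negative too, and 1 passed. The list was drawn up with earlier results of these data known, so its counts describe these genes only. Of 28 on the array, 1 was lower and 0 higher (3.57% lower, against 2.54% of all genes). Limma gave an unadjusted p under 0.05 for 9 of the 28 (32.1%, against 20.9% of all genes tested). The 1 was Atad3a, an inner membrane ATPase of mitochondrial DNA nucleoids and cristae, which read 4215, 3097 and 2624 in wild type mice and 1047, 843 and 1149 in the other group, a change of -1.69 (SE 0.24, limma adjusted p = 0.00264). Its 3 other probe sets fell too, with changes between -1.84 and -1.50. The presequence peptidases Mipep (-0.87, SE 0.27, adjusted p = 0.0962) and Pmpca (-0.71, SE 0.25, adjusted p = 0.14) and the outer membrane protein Mtx2 (-0.62, SE 0.23, adjusted p = 0.16) did not overlap between the groups and did not pass. The median change of the 28 genes was -0.23, with 20 of them negative.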

How the data were processed

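The deposited table holds 1 linear intensity for each of 45101 probe sets and 6 arrays. The authors scaled each array, as the mean of the middle 96% of deposited intensity values is 150.0 on all 6. The sources used here do not give the scanner software or probe summary. Probe sets were named through the platform annotation (34945 of the 45037 that are not controls have 1 symbol, 932 several and 9160 none here), and 34741 of the 34945 matched a RefSeq gene of GRCm38.p6.

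An offset of 16 was added to the deposited intensities, log2 was taken, and each array was centred on its median, since medians differed by 0.126. Log2 changes of dim genes are therefore understated. The test kept probe sets whose mean log2 reached the 40th percentile, 4.87, which equals an intensity of 13.2. The arrays labelled double knockout minus those labelled wild type were compared in R 4.3.3 by limma 3.58.1, using lmFit and eBayes with trend, across all 27022 probe sets, with Benjamini-Hochberg adjustment over them at 0.05. SE is the moderated standard error, and intervals are 95%. The number of arrays limits the precision. The fit was tested on simulated data.

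Without detection calls, the brightest of 27 Bacillus subtilis control probe sets, between 19.0 and 29.9, marked background. The members and gene lists were chosen with earlier results of these data known. Genes named are those called, the smallest p among the others of each role group, paralog pairs, and the 4 smallest p of the other import genes; the remaining members are given more briefly. Protein identity between paralogs was not computed. Alternatives left out each array, used quantile normalization or uncentred values, an offset of 1 or 64, no filter or one at the 60th percentile, no trend, weights per array, a block for the replicate number, and other choices of probe set.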

Additional observations from a re-analysis of the deposited data

How the results depend on the processing

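The median change of the members stayed negative in all 17 alternatives, between -0.57 and -0.27. The 6 genes that fell all passed as deposited, with quantile normalization, both offsets, both other filters, without an intensity trend, with array weights, without wild type replicate 3 and when adjusted over genes. With array weights 15 member probe sets were lower, 1 outer membrane gene and 2 folding genes among the members were added, 3 of the other import genes were lower and 1 higher, and 1943 genes were called in all instead of 825. With the replicate number as a block, 3 member probe sets and 2 genes (Rbfa and Timm8a1) were lower, of 354 genes called in all. Of these 2 genes, 1 was in the intermembrane space and 0 in the motor. Same-numbered arrays did not deviate together (correlations of -0.05, -0.13 and -0.29), and differently numbered ones gave between -0.19 and 0.25. With 3 arrays in a group this check cannot decide whether samples were paired, and the labels do not say. With 1 array left out, between 3 and 13 member probe sets (13 without wild type replicate 3) and 3 to 6 member genes were lower, 1 to 4 in the intermembrane space and 0 or 1 in the motor, 0 or 1 member probe set and gene higher, 1 or 2 other import genes lower and 0 or 1 higher, and between 235 and 1636 genes were called in all. The genes lower without double knockout replicate 1 or 3 included Gfer through its second probe set, so 2 and 4 of the 6 main calls remained there. Gfer alone was higher (1) as deposited, with quantile normalization, offset 64, the 60th percentile filter, array weights and adjustment over genes. Its second probe set reversed the sign (-1.85). With adjustment over genes or the probe set of smallest p, 1 folding gene was lower. A dim Hspa9 probe set had a change of 5.52e-05. The cause of these differences was not tested.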

Other observations

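In the list of other import genes, a few members had a sign opposite to most. Oxa1l, the insertase that places mitochondrially encoded proteins into the inner membrane, read 294, 439 and 449 in wild type mice and 639, 649 and 635 in DKO-labelled mice, a change of 0.69 (SE 0.25, limma adjusted p = 0.161), without overlap. Hscb, a cochaperone of iron-sulfur cluster assembly, read 711, 694 and 1314 against 1821, 1595 and 1174, a change of 0.77 (SE 0.29, adjusted p = 0.17), with overlap. The outer membrane insertase subunit Samm50 gave 0.09 (SE 0.22), whereas its partner Mtx1 gave -0.52 (SE 0.20, adjusted p = 0.188). These genes were named here after their values were seen.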
